A study of Mus musculus with 6 samples.

Results

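The Notch pathway was followed through 10 genes in C2C12 cells, a mouse myoblast line that stops dividing and fuses into multinucleated muscle fibres when serum is lowered. The genes were taken by symbol from a table of 27179 genes and comprised 3 receptors (Notch1, Notch2, Notch3), 3 ligands (Dll1, Jag1, Jag2) and 4 genes of the HES and HEY families of transcriptional repressors (Hes1, Hes6, Hey1, Heyl). The myotube group held 3 libraries from cells that stood at 100% confluence for 3 days and then spent 5 days in 2% horse serum with insulin, transferrin, selenium and ethanolamine. The myoblast group held 3 libraries from cells growing below confluence in 10% fetal bovine serum. Medium with high glucose and 4 mM glutamine was common to both groups, so differentiation, serum, supplements and cell density changed together. All libraries came from a single cell line, and the labels name no separate cultures, so the spread behind each p-value is that of these libraries and may be technical.

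Notch receptors are single-pass membrane proteins that are activated by ligands of the Delta and Jagged families on a neighbouring cell. Ligand binding exposes the receptor to an ADAM protease and then to γ-secretase, and the freed intracellular domain enters the nucleus, joins the DNA-binding protein RBPJ and coactivators of the Mastermind family, and switches on HES and HEY genes. In skeletal muscle the pathway is best known for keeping satellite cells, the resident stem cells, undifferentiated and for restraining the myogenic factor MyoD. Hes6 stands apart from the other repressors, since in mouse cells it has been described as an inhibitor of Hes1 and as a promoter of muscle differentiation.

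Total counts ranged from 7370169 to 8339589 in myotube libraries and from 10076945 to 11723881 in myoblast libraries. The labelled states were checked on marker genes. All 8 markers of differentiated muscle rose, with a summed level of 14720 to 15240 CPM (read counts relative to library size, after TMM scaling) in myotubes and 281 to 294 CPM in myoblasts. Averaged over all 6 libraries the highest were Acta1, Myh3 and Cdkn1a, and in myoblasts alone the cell cycle inhibitor gene Cdkn1a gave most of the sum (1982 CPM in myotubes and 209 CPM in myoblasts). All 8 markers of growing myoblasts fell, with sums of 132 to 144 CPM in myotubes and 2119 to 2149 CPM in myoblasts, led by Top2a, Mki67 and Ccna2. Of 6 markers of reserve or quiescent satellite cells, which myotube cultures can retain unfused, 2 rose, 1 fell, 1 was not called and 2 were too low to test. The log2 change, myotubes over myoblasts, was 2.91 for Spry1, where a transcript of the opposite strand covers 24.4% of exon bases. It was 1.15 for Cd34 and, with overlapping groups, -0.13 for Myf5. Their sums, mostly from Cd34, Myf5 and Pax7, were 220 to 255 CPM in myotubes and 167 to 172 CPM in myoblasts, with Calcr at 0 counts in every library. The 6 endothelial markers summed to 1.39 to 2.85 CPM in myotubes and 0.377 to 0.719 CPM in myoblasts, all too low to test, with Tek the highest at a mean of 1.002 CPM in myotubes and 0.411 CPM in myoblasts, and Emcn at 0 counts. The mural markers Rgs5, Myh11 and Kcnj8 averaged under 1 CPM in each group. The mural sum was 181 to 189 CPM in myotubes and 293 to 324 CPM in myoblasts. It came mostly from Pdgfrb and Cspg4, with Cnn1 at 0.542 CPM in myotubes and 3.77 CPM in myoblasts. Of these 3, the only mural markers tested, Pdgfrb and Cnn1 fell (log2 changes -1.27 and -2.79) and Cspg4 rose (0.39). The part of these cell states in the values below was not tested, and in bulk RNA a change in the number of cells of a state cannot be told apart from a change in RNA per cell.

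All 10 genes passed the filter on low counts and all 10 were called, 6 higher and 4 lower in myotubes, at a threshold of 0.05 on p-values from edgeR's quasi-likelihood F test, adjusted by Benjamini-Hochberg over 12800 genes. Most of the transcriptome differed between these states: 79.5% of tested genes were called, 40.2% higher and 39.2% lower, so the count of called members is near the background and the sizes and directions carry the description. The median log2 change, myotubes over myoblasts, was 0.73 over the 10 genes and 0.02 over all tested genes. In edgeR's test against a 2-fold threshold, 4 of the 10 passed, 3 upward (Dll1, Hes6 and Heyl) and 1 downward (Jag2), where 21.6% of tested genes passed, 12.4% higher and 9.2% lower. For each of the 10, the libraries of one group lay wholly above those of the other, which also held for 80.5% of tested genes, 40.6% higher and 39.9% lower.

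**Figure D1:**
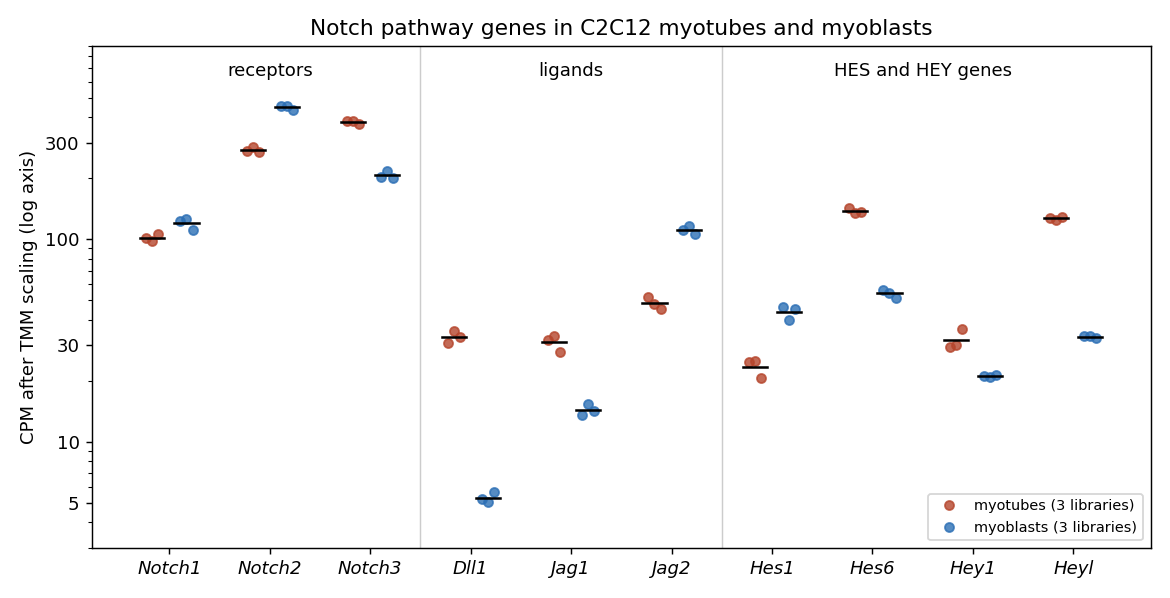
CPM after TMM scaling on a log axis for each of the 10 genes, with points for the 3 myotube libraries on the left and the 3 myoblast libraries on the right of each gene and bars for the group means. No gene's groups overlap, and Dll1 and Heyl are the genes whose groups stand farthest apart.

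Upstream sequences were available for 7 of the 10 genes in the RefSeq promoter table of GRCm38.p6, the assembly that mm10 names, as 9 windows reaching from 250 bases before an annotated start to 50 bases after it. Hes1, Hey1 and Heyl had no window. Below are the 250 bases before the start for Hes6 and Dll1, both of which rose, and for Jag2, which fell, on the strand of the gene. Capitals mark matches to the E-box CANNTG, the letters bound by myogenic helix-loop-helix factors, which reads as the same motif on both strands.
Hes6, chr1:91414039-91414288, minus strand: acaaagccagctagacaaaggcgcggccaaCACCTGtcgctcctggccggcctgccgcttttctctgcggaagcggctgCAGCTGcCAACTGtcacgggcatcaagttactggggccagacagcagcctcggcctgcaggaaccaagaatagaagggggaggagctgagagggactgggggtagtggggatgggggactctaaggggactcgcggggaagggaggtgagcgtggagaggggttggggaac
Dll1, chr17:15376933-15377182, minus strand: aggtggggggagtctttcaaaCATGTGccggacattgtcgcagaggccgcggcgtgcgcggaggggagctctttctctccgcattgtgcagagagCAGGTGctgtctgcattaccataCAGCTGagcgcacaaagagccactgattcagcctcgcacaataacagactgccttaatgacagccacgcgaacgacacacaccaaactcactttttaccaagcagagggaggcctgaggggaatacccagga
Jag2, chr12:112929496-112929745, minus strand: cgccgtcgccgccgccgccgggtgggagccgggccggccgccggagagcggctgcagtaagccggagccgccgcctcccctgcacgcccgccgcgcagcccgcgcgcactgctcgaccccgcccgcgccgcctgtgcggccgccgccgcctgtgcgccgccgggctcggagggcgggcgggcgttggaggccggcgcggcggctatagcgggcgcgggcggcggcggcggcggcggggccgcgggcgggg
The Hes6 window held 3 E-boxes, at positions -220, -171 and -164 from the start, and the Dll1 window held 3, at -229, -155 and -132, while the Jag2 window held none. Jag1, which also rose, had an E-box at -82. The windows of Notch1 and Notch2, which fell, and of Notch3, which rose, had none. The other windows of Hes6 and Dll1, not printed, held an E-box at -150 and at -220. E-boxes thus occurred in 5 of the 9 windows, beside 72.3% of all 32851 promoter windows. The narrower form CAGCTG occurred in 4 of the 9, from Hes6, Dll1 and Jag1, and in 16.3% of all windows. The RBPJ motif GTGGGAA, searched on both strands, was in 0 of the 9 windows and in 6.38% of all windows, and its shorter form TGGGAA in 0 of the 9 and 25.6% of all. The class C site of HES and HEY proteins, CACGCG, was found in Dll1, Jag1, Jag2 and Notch2 (9.27% of all windows), and the N-box CACNAG in Dll1, Hes6, Notch1, Notch2 and Notch3 (42.5% of all windows). The N-box matches of Hes6 lie in its other window, which starts farther into the gene. These matches describe letters in short windows and say nothing of binding.

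The receptors moved apart. Notch3, a receptor found in satellite cells and in the smooth muscle of vessels, had 382, 383 and 369 CPM in myotube libraries 1, 2 and 3, against 204, 218 and 201 CPM in myoblast libraries. Every myotube library lay above every myoblast library, and the gene rose 1.82-fold (log2 change 0.86, SE 0.04, adjusted p = 4.19e-16 by edgeR). Notch2, which acts with Notch1 in satellite cells, had 273, 287 and 270 CPM in myotubes, against 453, 453 and 435 CPM in myoblasts. It fell to 61.8% of its myoblast level (log2 change -0.69, SE 0.04, adjusted p = 1.83e-14 by edgeR). Notch1, the founding mammalian receptor, had 101, 98.0 and 107 CPM in myotubes, against 124, 126 and 111 CPM in myoblasts. The highest myotube library and the lowest myoblast library were close together, and the change was the smallest of the 10 (log2 change -0.24, SE 0.05, adjusted p = 0.000326 by edgeR). Of all tested genes, 76.5% had a larger absolute log2 change than Notch1. The libraries were stranded, but the sources used here do not state whether counting used strand. Whether the counts of a gene include reads of its antisense partner is therefore not known. In GENCODE M21, 10.4% of Notch1 exon bases and 6.03% of Notch3 exon bases lie under a transcript of the opposite strand, while 5.02% of Notch2 exon bases are shared with a transcript of the same strand. The antisense partner of Notch3 in the table, Gm17276, had 5 counts over the myotube group and 1 over the myoblast group, and that of Notch1, 0610009E02Rik, had 17 and 16.

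Per kilobase of annotated exon, the receptor pool as a whole was 79.5 ± 1.303 CPM per kilobase in myotubes and 75.5 ± 2.44 in myoblasts (SD, n = 3), a log2 ratio of 0.074 that became -0.0727 when libraries were scaled by total counts instead of TMM. Its make-up differed more than its size. Notch3 supplied 58.8 ± 0.48% of the pool in myotubes and 33.9 ± 0.69% in myoblasts, and Notch2 supplied 32.2 ± 0.60% in myotubes and 54.9 ± 0.76% in myoblasts. Notch1 stayed the smallest part, at 9.01 ± 0.54% in myotubes and 11.2 ± 0.44% in myoblasts. In myotubes the order by level was thus Notch3, Notch2, Notch1, and in myoblasts Notch2, Notch3, Notch1, with no overlap between neighbours in either group. These shares do not depend on scaling between libraries; they are descriptions with no test.

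Among ligands, Dll1 showed the steepest change of the 10 genes. Dll1, a Delta ligand on which embryonic muscle progenitors in the mouse depend, had 30.7, 35.1 and 33.0 CPM in myotubes, against 5.21, 5.04 and 5.65 CPM in myoblasts. The groups were far apart, and the gene rose 6.21-fold (log2 change 2.64, SE 0.11, adjusted p = 3.79e-17 by edgeR), with a p of 2.27e-13 adjusted for the test against a 2-fold change by edgeR. Only 8.15% of tested genes had a larger absolute log2 change. A transcript of the opposite strand covers 20.6% of Dll1 exon bases, so part of its reads is uncertain. Jag1, the Jagged ligand mutated in Alagille syndrome, had 31.7, 33.4 and 27.7 CPM in myotubes, against 13.5, 15.3 and 14.2 CPM in myoblasts. It rose 2.15-fold (log2 change 1.10, SE 0.10, adjusted p = 1.22e-10 by edgeR), but a change above 2-fold was not called (adjusted p = 0.211 by edgeR). Jag2, its close relative, went the other way, with 51.9, 47.6 and 45.2 CPM in myotubes, against 111, 116 and 106 CPM in myoblasts. It fell to 43.4% of its myoblast level (log2 change -1.20, SE 0.06, adjusted p = 1.10e-15 by edgeR), and the fall was larger than 2-fold (adjusted p = 0.00148 by edgeR).

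The summed ligand level hardly differed while its composition did. The 3 ligands together had 20.0 ± 0.923 CPM per kilobase in myotubes and 19.6 ± 0.743 in myoblasts (SD, n = 3), and the libraries of the groups overlapped. The log2 ratio was 0.03, and it became -0.118 with scaling by total counts, -0.0923 with the length of the longest transcript and -0.0017 without myotube library 2. Jag2 made up 34.6 ± 2.16% of the ligand pool in myotubes and 81.1 ± 0.864% in myoblasts. Dll1 made up 38.95 ± 2.58% in myotubes and 6.41 ± 0.608% in myoblasts, and Jag1 26.45 ± 1.35% in myotubes and 12.5 ± 0.548% in myoblasts. With the length of the longest transcript, Jag2 held 39.15 ± 2.32% and Dll1 38.07 ± 2.59% in myotubes. The order of Jag2 and Dll1 there thus depends on the length used. Myoblast ligand RNA was therefore mostly Jag2, and myotube ligand RNA was spread over all 3 genes.

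**Figure D2:**
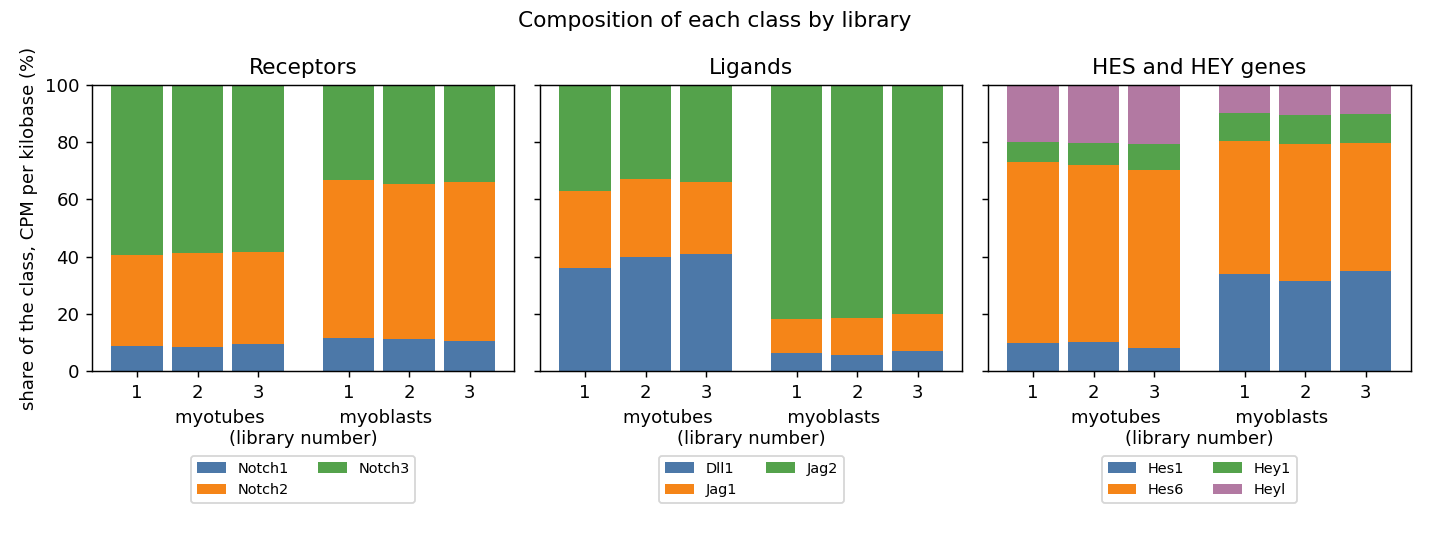
Share of each gene, in percent, in the summed CPM per kilobase of exon of its class, as stacked bars for myotube libraries 1 to 3 and myoblast libraries 1 to 3. Notch3 takes 58.4 to 59.3% of the receptor bars in myotubes and 33.2 to 34.6% in myoblasts, Jag2 takes 32.8 to 37.0% of the ligand bars in myotubes and 80.1 to 81.8% in myoblasts, and Hes1 takes 8.28 to 10.2% of the HES and HEY bars in myotubes and 31.4 to 35.1% in myoblasts.

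Of the HES and HEY genes, Hes1 alone fell. Hes1, the classical repressor switched on by Notch, had 24.8, 25.04 and 20.6 CPM in myotubes, against 46.3, 40.1 and 45.4 CPM in myoblasts, a drop to 53.4% of the myoblast level (log2 change -0.90, SE 0.09, adjusted p = 4.90e-10 by edgeR). Hes6 had 143, 134 and 137 CPM in myotubes, against 56.3, 54.6 and 51.3 CPM in myoblasts, and rose 2.55-fold (log2 change 1.35, SE 0.05, adjusted p = 6.76e-18 by edgeR). Its increase was larger than 2-fold (adjusted p = 3.80e-07 by edgeR). Heyl, a HEY repressor that is a Notch target in satellite cells, had 127, 125 and 129 CPM in myotubes, against 33.2, 33.2 and 32.6 CPM in myoblasts. It rose 3.85-fold (log2 change 1.94, SE 0.05, adjusted p = 5.83e-21 by edgeR), also beyond 2-fold (adjusted p = 4.84e-15 by edgeR), with libraries of each group close together. Hey1, its relative and also a Notch target, had 29.3, 29.9 and 36.1 CPM in myotubes, against 21.2, 20.9 and 21.3 CPM in myoblasts. Myotube library 3 lay above the other myotube libraries, and the gene rose 1.51-fold (log2 change 0.59, SE 0.09, adjusted p = 1.48e-06 by edgeR). None of these 4 genes shares exon bases with another annotated gene.

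Summed over the 4 genes, HES and HEY RNA was 122.5 ± 2.605 CPM per kilobase in myotubes and 64.4 ± 2.16 in myoblasts (SD, n = 3), a ratio of 1.90. Hes6 accounted for 62.3 ± 0.765% of it in myotubes and 46.4 ± 1.72% in myoblasts, and Hes1 for 9.42 ± 1.02% in myotubes and 33.5 ± 1.90% in myoblasts. Heyl took 20.3 ± 0.371% in myotubes and 10.0 ± 0.305% in myoblasts, and Hey1 7.95 ± 0.993% in myotubes and 10.1 ± 0.295% in myoblasts. The larger sum in myotubes thus lay in Hes6 and Heyl, with a smaller share of Hes1. Hes6, set apart above as an inhibitor of Hes1, gave 76.4 CPM per kilobase in myotubes and 29.9 in myoblasts. The sum is therefore no measure of Notch activity, which was not tested.

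Across all 10 genes, the level per kilobase ran in myotubes from Hes6 (76.4 ± 2.55 CPM per kilobase) through Notch3 (46.7 ± 0.931), Notch2 (25.6 ± 0.830), Heyl (24.85 ± 0.388), Hes1 (11.5 ± 1.23), Hey1 (9.73 ± 1.16), Dll1 (7.80 ± 0.518), Notch1 (7.16 ± 0.307) and Jag2 (6.93 ± 0.489) to Jag1 (5.31 ± 0.508). In this order the neighbours Notch2 and Heyl, Hes1 and Hey1, Dll1 and Notch1, and Notch1 and Jag2 overlapped between libraries. In myoblasts it ran from Notch2 (41.5 ± 0.941) through Hes6 (29.9 ± 1.38), Notch3 (25.6 ± 1.12), Hes1 (21.6 ± 1.65), Jag2 (15.9 ± 0.7085), Notch1 (8.43 ± 0.583), Hey1 (6.47 ± 0.0641), Heyl (6.455 ± 0.0697) and Jag1 (2.46 ± 0.156) to Dll1 (1.26 ± 0.0748), and only Hey1 and Heyl overlapped. By exon union, Dll1 was thus the lowest of the 10 in myoblasts, and stood with Notch1 in myotubes. With the length of the longest transcript, the order changed places in both groups, among them Heyl above Notch2 in myotubes and Hes1 above Notch3 in myoblasts. By that length Dll1 lay below Notch1 in myotubes, at 9.19 ± 0.611 against 10.7 ± 0.461 CPM per kilobase. It remained the lowest in myoblasts.

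Ratios between related genes within a library, which need no scaling between libraries, separated the groups without overlap in all 4 pairs examined. For Notch3 and Notch1, Jag2 and Jag1, and Hes6 and Hes1, which moved in opposite directions without overlap, this separation follows from the single genes. How many other gene pairs separate in this way was not examined. The log2 ratio of Hes6 to Hes1 counts was 2.52, 2.42 and 2.73 in myotube libraries 1, 2 and 3, against 0.28, 0.44 and 0.18 in myoblast libraries, a difference of 2.26. Jag2 over Jag1 was 0.71, 0.51 and 0.71 in myotubes, against 3.04, 2.92 and 2.89 in myoblasts, a difference of -2.31. The ratio of Heyl to Hey1 was 2.12, 2.06 and 1.83 in myotubes, against 0.65, 0.67 and 0.61 in myoblasts, a difference of 1.36. Notch3 over Notch1 was 1.92, 1.96 and 1.79 in myotubes, against 0.72, 0.79 and 0.86 in myoblasts, a difference of 1.10. In every pair the gene named first had the higher count in all 6 libraries. Counts are not divided by length here, so this does not rank levels. Per kilobase of exon, Heyl and Hey1 overlapped in myoblasts, at 6.455 ± 0.0697 and 6.47 ± 0.0641 CPM per kilobase (SD).

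**Figure D3:**
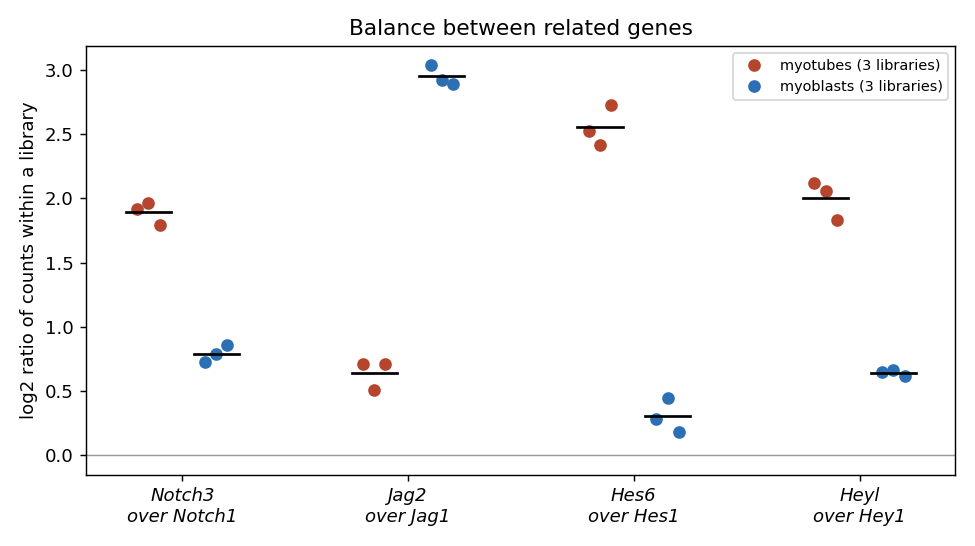
Log2 ratio of counts within each library for 4 pairs of related genes, with points for the 3 myotube libraries on the left and the 3 myoblast libraries on the right of each pair and bars for the means. The ratio is higher in myotubes for Notch3 over Notch1, Hes6 over Hes1 and Heyl over Hey1, and lower in myotubes for Jag2 over Jag1.

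The remaining family genes were near or at the floor. Of 10 further receptors, Delta-like ligands and HES or HEY genes, only Dlk2, a membrane protein of the Delta-like family, was high enough to test. Dlk2 had 9, 2 and 10 counts in myotubes, against 21, 29 and 15 counts in myoblasts, and fell (log2 change -1.01, SE 0.39, adjusted p = 0.0205 by edgeR). Its call was lost in the DESeq2 Wald test (adjusted p = 0.107), without myotube library 2 (adjusted p = 0.169 by edgeR) and without myoblast library 2 (adjusted p = 0.103 by edgeR). Notch4, the receptor best known from endothelium, had 13 counts over the 3 myotube libraries and 9 over the 3 myoblast libraries, and the endothelial ligand Dll4 had 6 and 1. Hey2 had 3 counts in myotubes and 12 in myoblasts, Hes7 had 4 and 2, Hes3 had 2 and 0, and Hes2 had 0 and 2. Dll3, Dlk1 and Hes5 had 0 counts in all 6 libraries, which allows up to 0.134 CPM in the myotube group and 0.0881 CPM in the myoblast group, counting 3 reads over a group and covering counting error only.

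The other pathway genes, 83 including those 10 family genes, were examined by role, and 70 were tested. Of these 22 rose, 38 fell and 10 were not called, with a median log2 change of -0.18, beside 40.2% higher, 39.2% lower and a median of 0.02 over all tested genes. Scaling by total counts instead gave 19 higher and 43 lower. In the nuclear complex, 3 of 9 tested genes rose and 5 fell (median -0.30). Rbpj, the DNA-binding partner of the cleaved receptor, had 45.5 ± 2.48 CPM in myotubes and 28.2 ± 2.56 CPM in myoblasts (SD, n = 3; log2 change 0.69), and 24.3% of the 50-base windows of its longest transcript occur in another gene. Of its Mastermind coactivators, Maml1 fell by 0.53 and Maml3 by 0.30 on the log2 scale, and Maml2 was not called (log2 change -0.18, adjusted p = 0.153 by edgeR), although scaling by total counts called it lower. The acetyltransferase genes Kat2a, Crebbp and Ep300 fell by 0.83, 0.75 and 0.63, while Kat2b and Snw1 had log2 changes of 0.35 and 0.34, both higher. Snw1 shares 44.2% of its exon bases with Slirp on the opposite strand.

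Corepressor genes were called in both directions, 4 higher and 10 lower of 14 (median log2 change -0.45). Of all tested genes, 40.2% were called higher and 39.2% lower. Tle4, a Groucho-type corepressor recruited by HES proteins, had 7.34 ± 0.224 CPM in myotubes and 1.70 ± 0.312 CPM in myoblasts, and rose by 2.10 on the log2 scale, whereas its relatives Tle1 and Tle2 fell by 1.15 and 0.90. The histone deacetylase gene Hdac1 fell by 1.67, and 58.7% of the 50-base windows of its longest transcript occur in another gene, so its counts are uncertain. Cir1, a corepressor that binds RBPJ, and the histone demethylase gene Kdm5a rose by 1.08 and 0.41, but 42.6% of such windows of Cir1 occur in another gene. Genes of the opposite strand also cover 11.7% of Cir1 exon bases. Scrn3, among them, had 1600 counts over the myotube group and 650 over the myoblast group, against 252 and 182 for Cir1. The counts of Cir1 are thus uncertain too.

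Among genes for receptor cleavage, 4 of 10 rose, 5 fell and 1 was not called (median log2 change -0.13). The shares over all tested genes were 40.2% higher and 39.2% lower. Psen2, a catalytic presenilin of γ-secretase, had 33.8 ± 2.26 CPM in myotubes and 9.69 ± 0.692 CPM in myoblasts, a log2 change of 1.80. The accessory subunits Aph1c and Psenen rose by 1.02 and 0.38, Psenen losing its call in 6 of 13 alternatives, and 18.5% of the 50-base windows of Aph1c and 39.0% of those of Psenen occur in other genes. The convertase gene Furin fell by 0.40, the subunit gene Ncstn by 0.31 and Aph1b by 0.22. Aph1b lost its call in 5 of 13 alternatives, and 17.99% of its windows occur in other genes.

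Enzymes that add sugars to the EGF repeats of the receptors were lower or not called, 9 lower and 1 not called of 10 tested (median log2 change -0.64). Over all tested genes, 39.2% were called lower and 40.2% higher. Of the 9, Poglut2 was close to the threshold (log2 change -0.15, adjusted p = 0.0494 by edgeR), its groups overlapped, and its call was lost in 9 of 13 alternatives. Lfng, the Fringe glycosyltransferase that shifts receptor preference between Delta and Jagged ligands, had the steepest decrease of all pathway genes examined, with 7.99, 5.55 and 4.42 CPM in myotubes, against 38.6, 37.0 and 36.8 CPM in myoblasts (log2 change -2.66, SE 0.13, adjusted p = 3.44e-16 by edgeR). The xylosyltransferase genes Gxylt2 and Gxylt1 fell by 1.83 and 1.38. Poglut1 was not called (log2 change 0.05), and its sign turned with scaling by total counts, without myotube library 2 and without myotube library 3. Without myotube library 1 it was called higher (log2 change 0.18, adjusted p = 0.0164 by edgeR).

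Genes of ligand endocytosis, which pulls on the bound receptor, included 2 that rose and 3 that fell of 7 (median log2 change -0.01). The ubiquitin ligase gene Neurl1a had 242 ± 6.28 CPM in myotubes and 57.0 ± 1.95 CPM in myoblasts, a log2 change of 2.09, and Mib2 one of 1.07, while the related Neurl1b fell by 1.65 and the epsin gene Epn1 by 0.30. Neurl1a shares 9.47% of its exon bases with a transcript of the same strand. Among genes of receptor turnover 5 of 14 tested rose, 5 fell and 4 were not called (median log2 change -0.08). The counts of both roles stand beside 40.2% higher and 39.2% lower over all tested genes. Fbxw7, which marks the intracellular domain for degradation, had 106 ± 2.48 CPM in myotubes and 21.4 ± 0.98 CPM in myoblasts, a log2 change of 2.30, and the Deltex genes Dtx3l and Dtx3 rose by 0.95 and 0.47. Cdk8 and its cyclin Ccnc, which prime that degradation, fell by 0.78 and 0.38, and the kinase gene Aak1 fell by 0.43.

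Of 7 genes listed as Notch targets in mouse satellite or progenitor cells, 4 of 6 tested rose and 2 were not called (median log2 change 1.03). Over all tested genes 79.5% were called, 40.2% higher and 39.2% lower. The collagen genes Col6a2, Col6a1 and Col5a3 rose by 2.00, 1.35 and 1.12 on the log2 scale, and Col5a1 by 0.93. Pax7, the satellite cell transcription factor, had 63.8 ± 6.08 CPM in myotubes and 59.2 ± 1.64 CPM in myoblasts and was not called (adjusted p = 0.140 by edgeR), while without myotube library 3 it was called higher (adjusted p = 0.0222). Nrarp, a feedback inhibitor induced by Notch, had 16, 9 and 4 counts in myotubes, against 12, 19 and 18 counts in myoblasts, and was not called (log2 change -0.14, SE 0.39, adjusted p = 0.742 by edgeR). An antisense transcript covers 79.4% of the Nrarp exon bases. Without myotube library 3 the log2 change of Nrarp was 0.27.

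**Figure D4:**
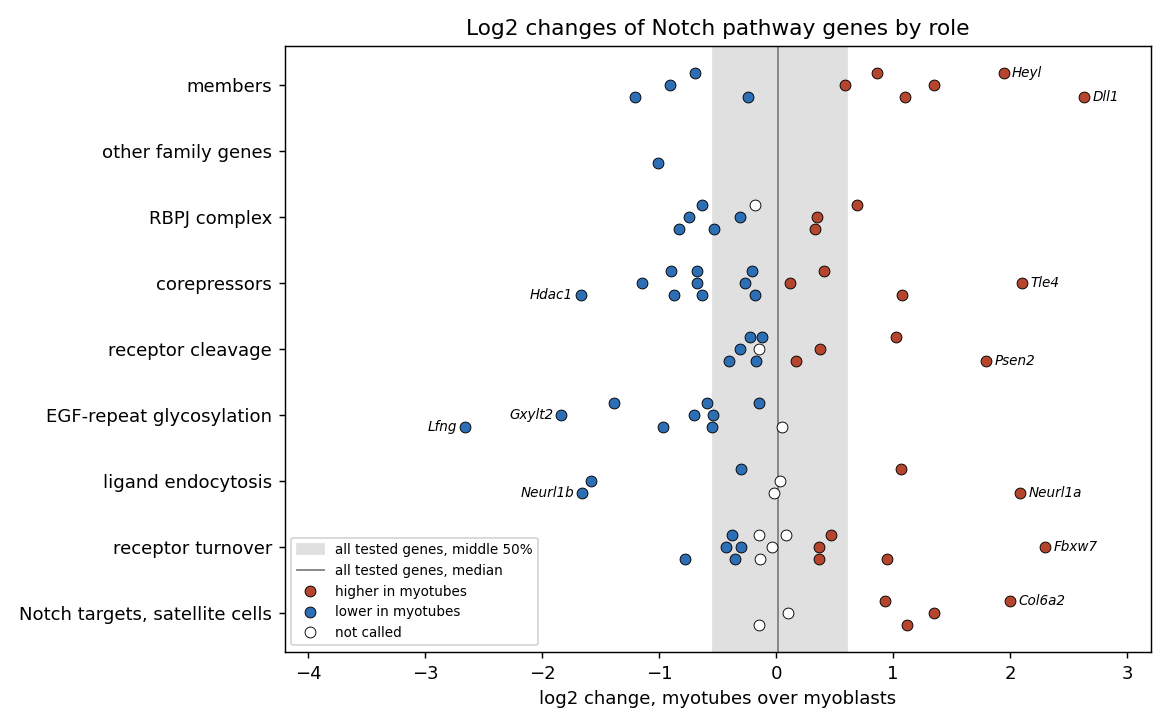
Log2 change, myotubes over myoblasts, of each tested gene by role, with colour for the call at an adjusted p of 0.05 and a grey band for the central quartiles of all tested genes around their median. Names mark changes beyond 1.6. The glycosylation row lies at or below the median apart from Poglut1, and Lfng at -2.66 and Dll1 at 2.64 are at the ends.

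In GRCm38, as annotated by GENCODE M21, Notch1 lies on chromosome 2 at 26457903 to 26516663, Notch2 on chromosome 3 at 98013527 to 98150361 and Notch3 on chromosome 17 at 32120820 to 32166852. Dll1 is on chromosome 17 at 15367354 to 15376872, Jag1 on chromosome 2 at 137081456 to 137116644 and Jag2 on chromosome 12 at 112907819 to 112929776. Hes1 is on chromosome 16 at 30064384 to 30067796, Hes6 on chromosome 1 at 91411483 to 91414038, Hey1 on chromosome 3 at 8663359 to 8667256 and Heyl on chromosome 4 at 123233556 to 123249875. Counts were made per gene and do not separate transcripts of a gene.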

How the data were processed

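RNA of C2C12 myotubes and myoblasts was extracted with TRIzol and made into stranded mRNA libraries, per the labels' protocols. Gene-level raw counts for 6 libraries are what the authors deposited; fastp, STAR, featureCounts and mm10 are named in the submitters' processing notes, without versions, while no source used here states how strand or reads with several matches were handled. Groups come from the sample titles, and columns were matched to samples by name.

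Counts were tested in edgeR 4.0.16 (R 4.3.3). The filter filterByExpr (minimum count 10, minimum total 15) left 12800 genes with at least 99.86% of each library's counts. TMM factors were 0.949 to 0.952 in myotubes and 1.05 to 1.055 in myoblasts. The robust quasi-likelihood F test compared myotubes with myoblasts, with p-values adjusted by Benjamini-Hochberg over all tested genes at 0.05, and glmTreat tested for more than 2-fold. SE was taken as the size of the log2 change over the root of its F statistic. The procedure was tested on simulated data. CPM are after TMM scaling; per-kilobase levels divide them by the union of GENCODE M21 exons. Ratios used an offset of 0.5 counts. Motifs were matched exactly.

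The table had 1049 genes without a symbol, which took 0.212 to 0.257% of counts. No pair of replicates agreed within sampling noise (chi-square per degree of freedom 1.35 to 3.22), so none was treated as a library deposited a second time; this does not show that they are separate cultures. Members and lists were chosen with earlier results of these data known. Genes were named by rule: all members, all further family genes, Rbpj and Maml genes, and in each other list the 3 largest called increases and decreases averaging 1 CPM or more. Poglut1, Poglut2, Spry1, Col5a1, Pax7 and Nrarp fall outside that rule and were named after their values were seen. The alternatives tried were scaling by total counts or by size factors of DESeq2 1.42.0, the DESeq2 Wald test, limma-voom (limma 3.58.1), no filter, a filter of 1 CPM in 3 libraries, a replicate block and leaving out each library.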

Additional observations from a re-analysis of the deposited data

How the results depend on the processing

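For all 10 members the direction and the call held under each of 13 alternatives: another scaling, filter, test or block, and leaving out each library. The more than 2-fold call held for the same number of members, 4, under each of the 11 alternatives run for it. Of 907 results of other pathway genes, 858 kept direction and call, 29 lost the call, 7 gained it and 13 turned sign. With scaling by total counts the median of all genes moved by -0.15, and Ncor1 (-0.0237), Poglut1 (-0.0992), Epn2 (-0.109), Dtx2 (-0.0639) and Pax7 (-0.0423) turned sign on the log2 scale. Of these, only Ncor1 was called with TMM. The split over all genes became 4269 higher and 5935 lower. With no filter, Epn2 was at -0.00893. Leaving out each library gave ranges of -0.0461 to 0.0085 for Mib1, -0.0263 to 0.0922 for Epn2, -0.0437 to 0.18 for Poglut1, -0.000295 to 0.14 for Dtx2 and -0.75 to 0.27 for Nrarp. The log2 ratio of class sums, an analysis added after the values were seen, turned to -0.0727 for receptors with total counts and to -0.118 for ligands with total counts and -0.0923 with the longest transcript. Leaving out libraries gave -0.0017 to 0.0641 for ligands, 0.0495 to 0.0957 for receptors and 0.91 to 0.96 for HES and HEY genes. The HES and HEY class was at 0.78 with total counts, at 0.85 with the longest transcript and at 0.93 as reported. Low counts limit Dlk2, Nrarp and the untested family genes. The labels do not say that replicate numbers mark a shared culture, and deviations of same-numbered libraries were not correlated (r of -0.0084, 0.0018 and -0.0039). With a replicate block, 10161 genes, all 10 members and 59 other pathway genes were called, against 10170, 10 and 60 without it.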
